A study of Drosophila melanogaster with 4 samples.

Results

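The nuclear-encoded genes of oxidative phosphorylation were followed in ovaries of *Drosophila melanogaster* with germline RNAi of *aramis* or of *bam*. Members were all genes whose FlyBase symbol starts with ND-, UQCR- or ATPsyn, or with COX and a digit. The rule found 80 genes among the 17023 of the files, of which 59 are subunits and 21 are paralogs, gene copies whose symbol adds an L to that of a subunit. There are 34 subunits and 6 paralogs for complex I, 6 and 3 for complex III, 8 and 8 for complex IV, and 11 and 4 for complex V. The rule read symbols alone, and no expression value entered it.

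Oxidative phosphorylation is carried out in the inner mitochondrial membrane. Complex I takes electrons from NADH, complex III passes them from ubiquinol to cytochrome c, complex IV hands them to oxygen, and the proton gradient built on the way drives complex V, the ATP synthase. The complexes combine subunits read from nuclear genes with a few read from mitochondrial DNA. In the fly ovary, mitochondria are inherited through the germline, and subunits of the ATP synthase have been tied to maturation of mitochondrial cristae as germ cells differentiate.

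The ovaries carried UAS-Dicer2 and NosGAL4, a driver active in germ cells, with an RNAi construct against *aramis* (n = 2 libraries) or *bam* (n = 2 libraries). *aramis*, listed in the annotation as *ais*, encodes a DEAD-box RNA helicase, and *bam* promotes differentiation of the daughters of germline stem cells. All females were yeast-fed and dissected 1 to 3 days after eclosion, and the RNA was poly(A)-selected and fragmented for 13 minutes. The driver acts only in germ cells, whereas RNA came from whole ovaries with their somatic cells, so fewer cells of a type and less RNA per cell cannot be told apart. The labels do not say whether replicates were separate cultures, and the p-values therefore measure only the spread between these libraries, which may be technical.

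Total counts per library ran from 12977013 to 16754980, where a floor of 3 counts corresponds to between 0.179 and 0.231 CPM (counts scaled to library size). The normalised count of *ais*, which is the count divided by the DESeq2 size factor of the library, was 117 and 153 under *aramis* RNAi and 910 and 323 under *bam* RNAi (log2 fold change -2.19, SE 0.56, DESeq2 adjusted p = 0.00186). *bam* stood at 50.3 and 72.7 under *aramis* RNAi and at 59.98 and 70.4 under *bam* RNAi, and without an untreated library its silencing could not be read. Markers of cell types also differed between the groups, some of them mainly through a single library. Of 18 germline markers tested, 14 were lower under *aramis* RNAi, with a summed level of 612 and 758 TPM, a level scaled for transcript length and library size, against 2548 and 3290. Of 17 muscle markers, 8 were higher (43410 and 49277 TPM against 27394 and 18823), as were 4 of 5 hemocyte, 4 of 9 gut and 2 of 7 fat body markers, while 1 of 12 ovarian somatic and 1 of 7 testis markers was lower. The ovarian somatic markers summed to between 909 and 1397 TPM, and in both groups germline and somatic ovary markers were present. The part of these cell types in the values below was not tested.

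All 80 members together held 2.01% and 1.75% of TPM in the *aramis* RNAi libraries and 2.01% and 2.31% in the *bam* RNAi libraries. The means were 1.88% ± 0.183 (SD, n = 2) and 2.16% ± 0.216, and *aramis* RNAi replicate 1 lay within the *bam* RNAi range. With 2 libraries in each group the smallest p of an exact permutation test is 0.333, and such single values were compared by their overlap alone. Complex V subunits took the most, with 0.872% and 0.780% under *aramis* RNAi and 0.825% and 0.991% under *bam* RNAi. Complex I subunits followed, at 0.648% and 0.552% against 0.614% and 0.758%, and overlapped between the groups as well. *ND-MLRQ* alone gave 1676 and 1379 TPM of the 6483 and 5518, against 1973 and 1787 of the 6136 and 7579. Its mammalian counterpart is assigned to complex IV, and the order of complexes I and IV depends on where it is counted. Complex IV was at 0.379% and 0.323% against 0.415% and 0.408%. Complex III, the smallest, was at 0.105% and 0.0919% against 0.144% and 0.144%. These sums hold members only, and subunits under other symbols, such as *blw* of complex V, are left out. In complexes III and IV both *aramis* RNAi libraries lay below both *bam* RNAi libraries on this scale.

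Subunits of the same complex differed widely in mRNA level. In complex V, mean TPM over the 4 libraries ran from 78.6 for *ATPsyndelta*, of the central stalk, to 3843 for *ATPsynbeta*, the catalytic subunit. The low end of this 48.9-fold range rests on the longest annotated transcript of *ATPsyndelta*, 3817 bases. In normalised counts *ATPsyndelta* had a mean of 2251, near the 2258 of *ATPsyngamma*, whose transcript has 1395 bases. Of the exon bases of *ATPsyndelta*, 35.6% overlap another gene. *ATPsynbeta* held 3956 and 3443 TPM under *aramis* RNAi and 3796 and 4177 TPM under *bam* RNAi, the highest mean of the 80 members. *ATPsynC*, which forms the rotating ring of the membrane part, followed with 1567 and 1616 TPM under *aramis* RNAi and 1715 and 2345 TPM under *bam* RNAi. In complex I the range was 44.8-fold, from 38.0 TPM for *ND-B18* to 1704 TPM for *ND-MLRQ*. The mammalian counterpart of *ND-MLRQ* is now assigned to complex IV, and its level here, 1676 and 1379 TPM against 1973 and 1787 TPM, was above that of all 8 complex IV subunits in every library. Complex IV ran from 157.6 TPM for *COX5B* to 793 TPM for *COX7A*, and complex III from 116 TPM for *UQCR-C2* to 316 TPM for *UQCR-6.4*, a range of only 2.71-fold.

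**Figure D1:**
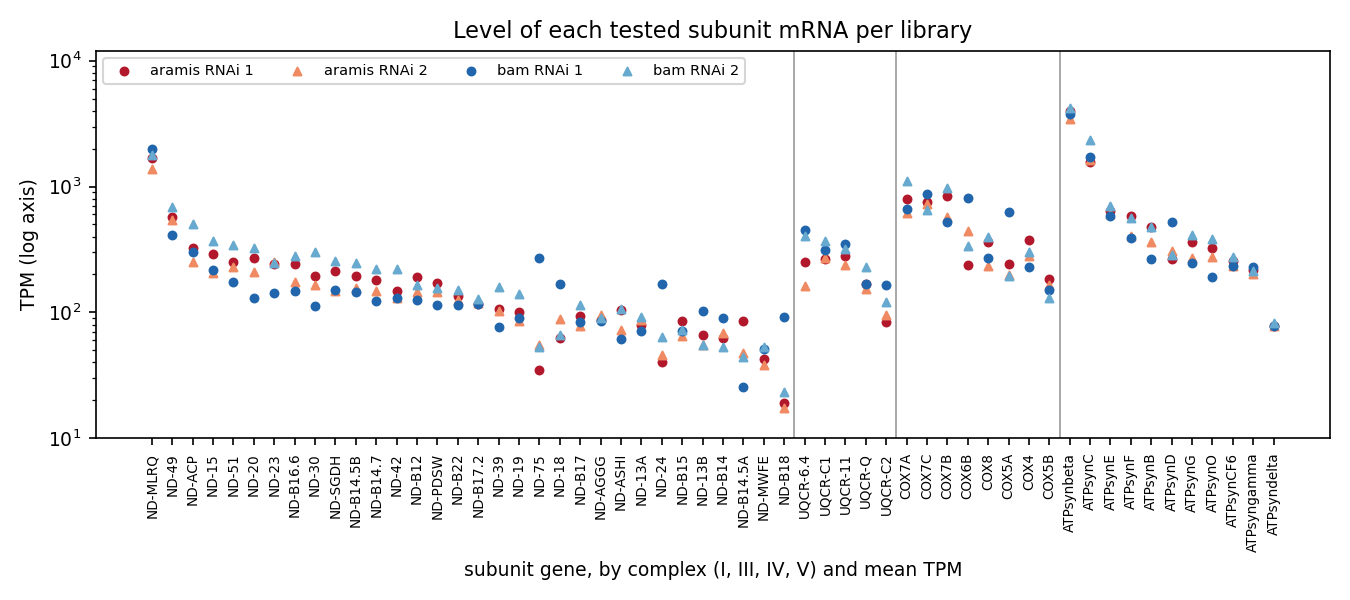
Level of each of the 56 tested subunit mRNAs in TPM (log axis) in the 4 libraries, with genes grouped by complex and ordered by mean TPM. Complex I spans 38.0 to 1704 TPM and complex V 78.6 to 3843 TPM. Genes whose bam RNAi 1 point stands above the other 3 libraries include ND-75, ND-24, ND-B18, ND-18, COX6B and COX5A, and they are not the only ones.

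A sum of at least 10 counts was reached by 66 members, 56 subunits and 10 paralogs, and these were tested. The 14 others were 3 subunits and 11 paralogs, and 10 genes had no count in any library. The 3 subunits below the filter were *ND-MNLL*, *UQCR-14* and *ND-B8*. *UQCR-14* encodes a complex III subunit and was listed at 0 throughout. All of its exon bases (100%) lie under exons of *CG32576* on the other strand (X, 16285953 to 16288533), which had 946 and 745 counts under *aramis* RNAi and 715 and 606 counts under *bam* RNAi. *ND-MNLL*, of complex I, shares 100% of its exon bases with *CG45089* on the same strand, and both were at 0. *ND-B8* had 3 counts in *bam* RNAi replicate 2 and none elsewhere, and 15.4% of its exon bases lie under *Gs1l*. Whether the counting used strand was not given in the sources used here, so for the 33 members whose exons overlap those of another gene (14 over more than 10% of their bases) the counts are uncertain. The 13 protein genes of mitochondrial DNA were listed at 0 in all libraries, and the balance of nuclear and mitochondrial transcripts was not analysed here.

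Between *aramis* and *bam* RNAi, 1 of the 66 tested members changed by DESeq2 at an adjusted p under 0.05, and it was higher. Over all genes with an adjusted p, 17.6% of 10049 were called, 9.85% higher and 7.79% lower. Among members, 63 had an adjusted p. At an unadjusted p under 0.05, DESeq2 gave 2 members higher and 2 lower, and the edgeR quasi-likelihood test gave 1 higher and 2 lower, with 0 after adjustment. The SE of a subunit's log2 fold change had a median of 0.464 (0.405 to 0.627).

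*ND-B14.5A*, an accessory subunit of complex I (FBgn0025839, X, 2172526 to 2173432, dm6), was that gene. Its normalised counts were 669 and 307 under *aramis* RNAi and 125 and 226 under *bam* RNAi, or 488 ± 257 against 176 ± 71.1 (SD, n = 2). Both *aramis* RNAi values lay above both *bam* RNAi values, although the *aramis* RNAi replicates themselves differed by more than the gap between the groups. The log2 fold change was 1.47 (SE 0.55, 95% interval 0.39 to 2.56, DESeq2 adjusted p = 0.0452). The call was lost with edgeR (adjusted p = 0.0812), with TMM scaling (0.0504), without independent filtering (0.0501) and with total-count scaling (0.149). It was lost as well without *aramis* RNAi replicate 1, *aramis* RNAi replicate 2 or *bam* RNAi replicate 1, though not without *bam* RNAi replicate 2. Each such fit leaves a group with 1 library, which was assumed to vary like the other group. Over these fits the log2 fold change ran from 0.83 to 1.95.

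The other subunits were not called. Of 56 tested subunits, 48 had a fold change above 0 and 8 below 0 (29 and 27 with total-count scaling, 56 and 0 with scaling to the germline markers), and over all 66 members the median log2 fold change was 0.38, against -0.086 over 11128 tested genes, of which 47.2% were above 0. The difference between these medians was 0.47. It kept its sign under all other settings run, between 0.40 and 0.56, and ran from 0.17 to 0.72 when a library was left out, lowest when *aramis* RNAi replicate 1 was dropped and 0.21 when *bam* RNAi replicate 1 was. The sign of the member median itself depended on the scale. With total-count scaling the median of all genes was -0.45 and that of the members was -0.0035, and with scaling to the germline markers they were 1.80 and 2.30. Scaled as TPM, by contrast, the mean summed share of the members was lower under *aramis* RNAi, as given above. The directions below hold relative to the median gene, under the DESeq2 size factors.

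For 18 of 56 subunits both *aramis* RNAi libraries lay above both *bam* RNAi libraries, for 2 they lay below, and for 36 the groups overlapped. Over all tested genes, 27.4% lay above and 30.3% below. Including paralogs, 20 members lay above, 6 below and 40 overlapped.

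Within complex I, 28 of 32 tested subunits were fitted higher and 4 lower (16 and 16 with total-count scaling), with a median log2 fold change of 0.38, or 0.47 above that of all genes. The 7 core subunits, which carry the flavin, the iron-sulphur clusters and the quinone site, had a median of 0.40, and the 25 accessory subunits one of 0.36. Of the 3 most negative values, *ND-75* and *ND-24* belong to core subunits of the NADH-binding module and *ND-B18* to an accessory subunit. *ND-75*, which holds iron-sulphur clusters (X, 8248651 to 8251687), had normalised counts of 862 and 1142 under *aramis* RNAi and 4180 and 872 under *bam* RNAi. The high value was that of *bam* RNAi replicate 1 alone, while the other 3 libraries lay close together (log2 fold change -1.33, SE 0.60, 95% interval -2.52 to -0.15, DESeq2 adjusted p = 0.108). Without *bam* RNAi replicate 1 the fold change was 0.20, and with replicate 2 of that group left out instead it was -2.07. *ND-75* was the only member called with total-count scaling, lower, at -1.66 (DESeq2 adjusted p = 0.0307).

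*ND-24* encodes a subunit with an iron-sulphur cluster. It had 411 and 395 normalised counts under *aramis* RNAi and 1081 and 433 under *bam* RNAi (log2 fold change -0.91, SE 0.52). Both *bam* RNAi values lay above both *aramis* RNAi values, but replicate 2 only by a small margin. Its fold change was -0.099 when *bam* RNAi replicate 1 was dropped and -1.43 when replicate 2 was. Its partner *ND-51*, which binds NADH and flavin, had 3849 and 2931 under *aramis* RNAi and 1660 and 3487 under *bam* RNAi (0.40, SE 0.47), the opposite arrangement of the *bam* RNAi replicates. *ND-49*, the core subunit at the quinone site, had 8691 and 6897 under *aramis* RNAi and 3905 and 6904 under *bam* RNAi (0.53, SE 0.44). The core subunits *ND-23*, *ND-20* and *ND-30* had log2 fold changes of 0.83, 0.57 and 0.31. The accessory subunit *ND-B18* had 171 and 132 normalised counts under *aramis* RNAi and 526 and 140 under *bam* RNAi (-1.13, SE 0.63, adjusted p from DESeq2 0.209), so that again a single library stood apart. It was at 0.12 when that library was dropped and at -1.80 when *bam* RNAi replicate 2 was. Under that last setting *ND-51* was at 1.02 and *ND-49* at 0.99, against -0.036 and 0.18 when *bam* RNAi replicate 1 was dropped. The highest complex I mRNA, *ND-MLRQ*, showed 8686 and 5969 against 6405 and 6112 normalised counts (0.23, SE 0.41) and overlapped.

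Complex III had the lowest median, 0.16 over 5 tested subunits, with 3 fitted higher and 2 lower (0 and 5 with total-count scaling), and stood 0.24 above all genes. *UQCR-6.4*, a small accessory subunit, had 1354 and 731 normalised counts under *aramis* RNAi and 1524 and 1432 under *bam* RNAi. Both *aramis* RNAi values were the lower ones (log2 fold change -0.50, SE 0.46, DESeq2 adjusted p = 0.489), and 40.5% of its exon bases overlap another gene. The core protein gene *UQCR-C1* had 4187 and 3538 normalised counts under *aramis* RNAi and 3064 and 3854 under *bam* RNAi (0.16, SE 0.41). The other core protein gene, *UQCR-C2*, was at -0.17 (SE 0.42). *UQCR-11*, the hinge protein gene, and *UQCR-Q* were at 0.18 and 0.21. *UQCR-11* had 2953 and 2078 normalised counts under *aramis* RNAi against 2267 and 2187 under *bam* RNAi, and *UQCR-Q* had 1203 and 929 against 752 and 1090. Both overlapped between the groups.

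In complex IV, 6 of 8 subunits were fitted higher (4 of 8 with total-count scaling), with a median of 0.40, or 0.49 above all genes, and in 3 the libraries did not overlap. *COX5B*, which binds zinc in the matrix-facing part, had 1292 and 972 normalised counts under *aramis* RNAi and 662 and 604 under *bam* RNAi (log2 fold change 0.84, SE 0.43, 95% interval 0.0015 to 1.68, DESeq2 adjusted p = 0.164). *COX4*, whose mammalian counterpart binds ATP, had 4027 and 2517 against 1550 and 2132 (0.83, SE 0.44, adjusted p from DESeq2 0.185). *COX4* was at 1.07 when *bam* RNAi replicate 2 was dropped, and fell to 0.48 without *aramis* RNAi replicate 1. *COX7C* had 6240 and 4943 against 4521 and 3500 (0.48, SE 0.41). For these 3 genes the lowest *aramis* RNAi value was above the highest *bam* RNAi value. *COX7A* had 4748 and 3060 against 2477 and 4365 (0.19, SE 0.46) and overlapped. The lower 2 subunits were *COX5A* at -0.34 (SE 0.54) and *COX6B* at -0.27 (SE 0.50).

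All 11 complex V subunits (9 with total-count scaling) were fitted above 0, from 0.020 for *ATPsynD* to 0.70 for *ATPsynB*, with a median of 0.46, or 0.54 above all genes, and 0 were called by DESeq2 (lowest adjusted p 0.321) or by edgeR, with 0 also at an unadjusted p under 0.05 in either test. *ATPsynB*, of the peripheral stalk, had 4205 and 2669 normalised counts under *aramis* RNAi and 1469 and 2770 under *bam* RNAi (SE 0.47). *ATPsynO*, which joins that stalk to the catalytic head, had 2510 and 1768 against 919 and 1936 (0.58, SE 0.48). *ATPsynF* had 3334 and 1931 against 1404 and 2123 (0.58, SE 0.46). In these 3 genes *bam* RNAi replicate 1 was the lowest library and *bam* RNAi replicate 2 lay between the *aramis* RNAi replicates. Dropping *bam* RNAi replicate 2 gave 1.22 for *ATPsynB*, 1.21 for *ATPsynO* and 0.90 for *ATPsynF*. Dropping *bam* RNAi replicate 1 gave 0.32, 0.15 and 0.32. *ATPsynbeta* had 78060 and 56722 against 46919 and 54379 (0.41, SE 0.41) and did not overlap, by a small margin. *ATPsynC* had 27078 and 23315 against 18571 and 26740 (0.15, SE 0.41).

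**Figure D2:**
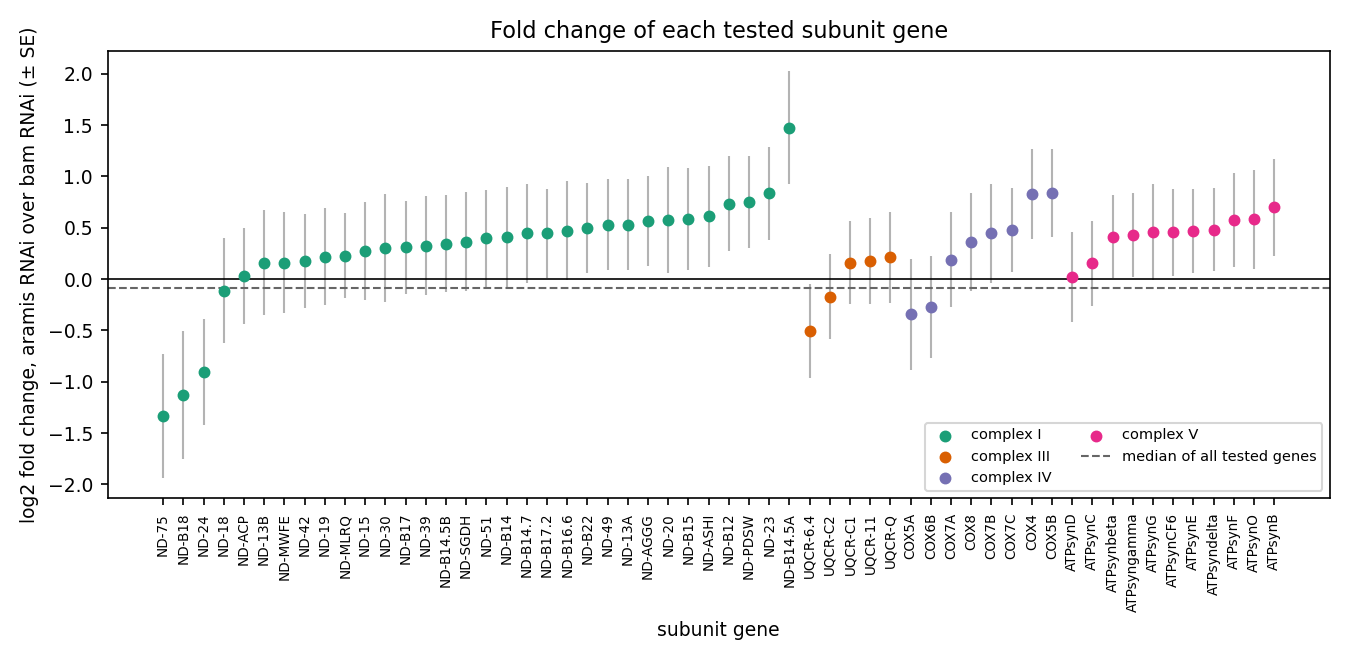
Log2 fold change of aramis RNAi over bam RNAi for the 56 tested subunits, with bars of 1 SE, coloured by complex and ordered within it. ND-B14.5A at 1.47 and ND-75 at -1.33 are the ends of the range, and the dashed line marks the median of all tested genes at -0.086.

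Replicates of the same group differed in a shared direction in most members. Among the 58 members whose mean normalised count reached 50, 55 were higher in *aramis* RNAi replicate 1 than in replicate 2 (49.2% of 7871 genes with the same minimum), and 41 were lower in *bam* RNAi replicate 1 than in replicate 2 (51.1% of those genes). These 41 showed both, which is 70.7% of the members against 38.1% of the 7871 genes. Member transcripts are short, with a median length of 804.5 bases against 2119 for those genes. Among the 3007 genes of like length (between the 5th and 95th percentile of the members), 53.4% showed both. These genes share the range only, and their median length, 1242 bases, was still above that of the members. The median log2 ratio of *aramis* RNAi replicate 1 to replicate 2 was 0.46 in members, 0.25 in genes of like length and -0.013 in all. That of *bam* RNAi replicate 1 to replicate 2 was -0.48, -0.35 and -0.038. For 37 of the 58 members the log2 difference between the *bam* RNAi replicates was larger than the fitted log2 fold change between the groups. A difference of 2 single libraries spreads more than one of 2 means, and the share over all genes was not computed.

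**Figure D3:**
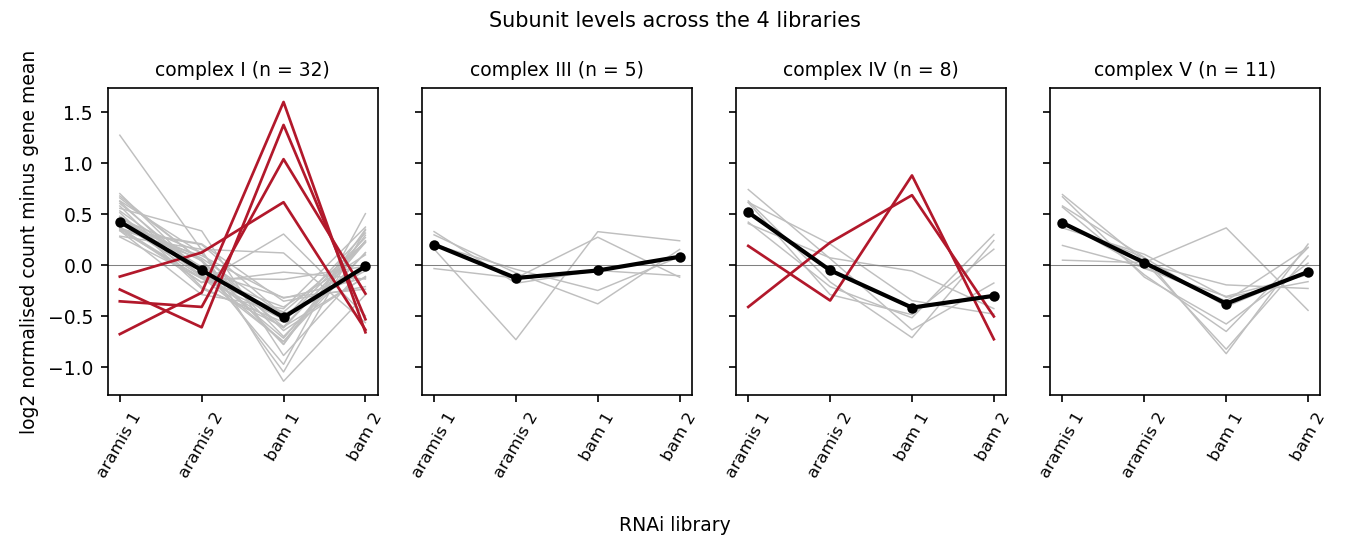
Log2 normalised count of each tested subunit minus its mean over the 4 libraries (grey lines), by complex, with the median per library in black and, in red, the 6 subunits more than 2-fold higher in bam RNAi replicate 1 than in replicate 2. The complex I median runs from 0.43 in aramis RNAi 1 to -0.51 in bam RNAi 1, while complex III stays between -0.13 and 0.20.

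The medians of the complexes followed these differences. After centring each gene on its mean over the libraries, the complex I subunits had a median log2 level of 0.43 and -0.049 under *aramis* RNAi and -0.51 and -0.010 under *bam* RNAi. For complex V these were 0.42 and 0.026 against -0.38 and -0.065, and for complex IV 0.52 and -0.049 against -0.42 and -0.30. In complexes IV and V both *aramis* RNAi medians were above both *bam* RNAi medians, while in complex I *aramis* RNAi replicate 2 was slightly below *bam* RNAi replicate 2. Complex III was the flattest, at 0.20 and -0.13 against -0.051 and 0.084. When *aramis* RNAi replicate 1 was dropped, the median log2 fold changes of complexes I, III, IV and V were 0.12, -0.074, 0.027 and 0.25, and when *bam* RNAi replicate 2 was dropped they were 0.74, 0.14, 0.68 and 0.61. Without *bam* RNAi replicate 1 they were 0.15, 0.0078, 0.53 and 0.32.

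A small set of members ran against this pattern. More than 2-fold higher in *bam* RNAi replicate 1 than in replicate 2 were 6 of the 58, namely *ND-75*, *ND-24*, *ND-B18*, *ND-18*, *COX6B* and *COX5A*, of which *ND-18*, *COX6B* and *COX5A* were named after their values were seen. The share was below the 14.8% of all genes with the same minimum. *ND-18*, an accessory subunit of the peripheral arm, had 466 and 549 normalised counts under *aramis* RNAi and 773 and 325 under *bam* RNAi. *COX6B* had 1695 and 2627 against 3625 and 1589, and *COX5A* had 1702 and 1174 against 2750 and 902. On the X chromosome lie 5 of the 6, where 10 of the 58 members are found, and 1 of the 48 members elsewhere was among them. Of 1343 X-linked genes with the same minimum 18.3% exceeded 2-fold in this direction. The set was found by looking at the data, and no test was made of it. Muscle markers differed between the same replicates, with 13 of 17 higher in *bam* RNAi replicate 1 (8 more than 2-fold) and 4 lower (1 more than 2-fold). They ran from *Tm2* at 36028 against 3737 normalised counts to *TpnC47D* at 112 against 313, and their part in the subunit values was not tested. With *bam* RNAi replicate 2 left out, the median log2 fold change of the members was 0.61, and without *bam* RNAi replicate 1 it was 0.20.

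**Figure D4:**
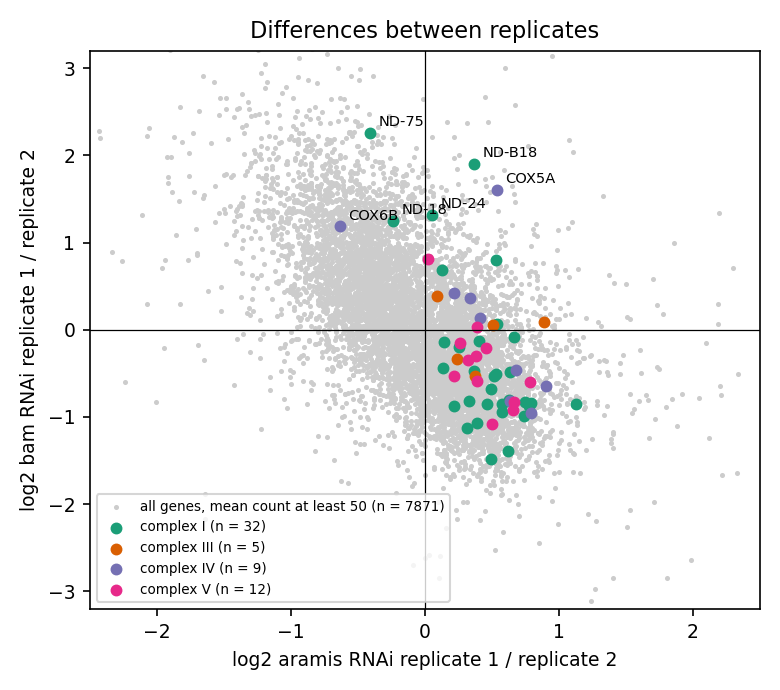
Log2 ratio of replicate 1 to replicate 2 in aramis RNAi (x axis) against the same ratio in bam RNAi (y axis), for 58 members coloured by complex and for 7871 genes in grey. Of the members, 41 lie in the lower right quadrant, and 6 named genes lie above 1 on the y axis. Grey genes beyond the axes are not drawn.

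The paralogs had few counts. Many duplicated subunit genes of flies are expressed mainly in testis. Of 21 paralogs, 11 had more than 3 counts in any library and 8 had none, among them *ND-20L*, *ND-B14.5AL*, *COX6AL*, *COX6AL2* and *COX6CL*. A count of 0 allows up to 0.231 CPM in the shallowest library, for counting error only. For *COX6AL2* and *COX5BL*, also at 0, 67.03% and 100% of the exon bases overlap another gene, and how reads there were assigned is not given, so their zeros cannot be read as absence. Reads of paralogs and parents may also be shared where their sequences are alike. Of the 10 tested, 0 were called by DESeq2 or by edgeR, and at an unadjusted p under 0.05 each tool gave 0 higher and 1 lower.

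*ATPsynepsilonL* was the most abundant, and its parent is *sun*, the epsilon subunit of the central stalk. It had 44.6 and 40.7 TPM under *aramis* RNAi and 53.4 and 76.4 TPM under *bam* RNAi, which is 8.31% and 8.78% of the pair with *sun* against 13.4% and 15.7%. The share of the pair was lower in both *aramis* RNAi libraries. Its normalised counts, 211 and 160 against 158 and 238, overlapped (log2 fold change -0.095, SE 0.53), and *sun* itself had 2132 and 1529 against 933 and 1173 (0.80, SE 0.43, adjusted p from DESeq2 0.19).

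*COX4L* had 12.3 and 8.55 normalised counts under *aramis* RNAi and 49.5 and 36.1 under *bam* RNAi (log2 fold change -2.03, SE 0.97, DESeq2 adjusted p = 0.133). Its share of the pair with *COX4* was 0.505% and 0.560% against 5.02% and 2.73%, so that the parent was fitted higher and the copy lower. *UQCR-6.4L* and its parent had the opposite arrangement. Its share of the pair was 4.602% and 5.90% under *aramis* RNAi and 0.624% and 2.58% under *bam* RNAi, from 49 and 33 counts against 7 and 34 (1.22, SE 0.98, adjusted p from DESeq2 0.424). The fold change was 0.56 without *bam* RNAi replicate 1, the library with 7 counts, and 2.53 without replicate 2. The pair shares of both genes did not overlap between the groups.

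The copies of *COX7A* and *COX7C* held between 0.0899% and 2.06% of their pairs. *COX7AL2* had 98 and 81 counts under *aramis* RNAi against 69 and 63 (1.497% and 1.99% of the pair, against 2.06% and 0.881%). *COX7AL* had 7 and 9 counts against 12 and 45 (0.160% and 0.331%, against 0.536% and 0.928%). *COX7CL* had 14 and 2 counts against 17 and 20 (0.477% and 0.0899%, against 0.817% and 1.01%). The shares of *COX7AL* and *COX7CL* were lower in both *aramis* RNAi libraries, and that of *COX7AL2* overlapped. For *COX7AL* and *COX7CL* the log2 fold changes were -1.61 (SE 1.20) and -1.08 (SE 1.37), from few counts. The 2 counts of *COX7CL* in *aramis* RNAi replicate 2 were below the floor of 3.

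Of the remaining copies, *ATPsynbetaL* had 11 and 0 counts under *aramis* RNAi and 11 and 14 under *bam* RNAi, at most 0.0248% of the pair with *ATPsynbeta*. *UQCR-11L* had 11 and 1 counts against 1 and 4, at most 0.926% of its pair. *ND-24L* had 8 and 0 against 0 and 2, *ND-49L* had 5 and 0 against 5 and 0, and *ND-51L1* had 0 and 6 against 2 and 0. At these depths no difference between the groups was detectable.

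**Figure D5:**
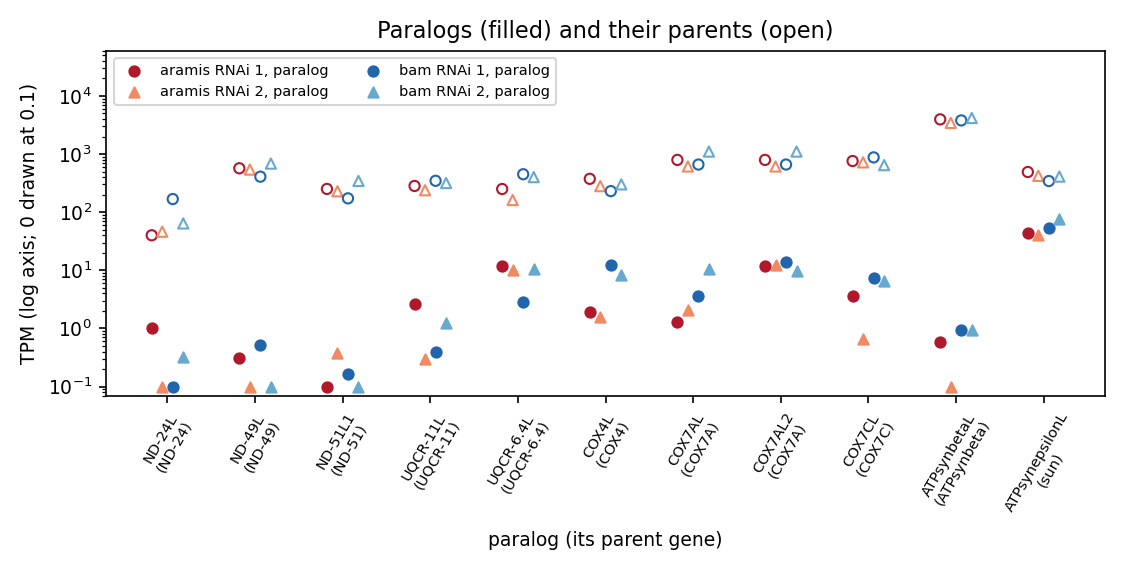
TPM (log axis, 0 drawn at 0.1) of the 11 paralogs with more than 3 counts in a library (filled) and of their parents (open) in each of the 4 libraries. ATPsynepsilonL at 40.7 to 76.4 TPM is nearest to its parent, and COX4L is lower in both aramis RNAi libraries than in both bam RNAi libraries.

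Genes that work beside the members were read from further lists. Complex II, which feeds electrons from succinate, had 5 genes tested, with a median log2 fold change of 0.39. DESeq2 and edgeR called 0 of them, also at an unadjusted p under 0.05. Unlike the medians of the other complexes, this one includes a paralog, *SdhBL* (1.34, SE 1.71). *SdhBL* had 6 and 16 counts under *aramis* RNAi and 8 and 1 under *bam* RNAi. *SdhA*, *SdhB*, *SdhC* and *SdhD* were at 0.16, -0.097, 0.39 and 0.76. Of the cytochrome c genes only *Cyt-c-d* was tested (0 and 2 counts against 11 and 4), since *Cyt-c-p* was not matched by its symbol. Subunits of the same complexes under other names, with *Cyt-c-d* and the copy *Cyt-c1L* (9 tested in all), had a median of 0.27. They include *blw*, the alpha subunit of complex V, at 24502 and 19026 normalised counts under *aramis* RNAi against 14533 and 20094 under *bam* RNAi (0.33, SE 0.41). *Cyt-c1L*, a copy of the gene of the haem-bearing subunit of complex III, was the 1 gene called among them. It had 17.5 and 35.3 normalised counts under *aramis* RNAi and 168 and 183 under *bam* RNAi (-2.74, SE 0.64, DESeq2 adjusted p = 0.000574), while *Cyt-c1* itself had 1819 and 1674 against 1849 and 1356 (0.12, SE 0.42). The 12 tested tricarboxylic acid cycle genes had a median of 0.14 and 0 calls by DESeq2 or edgeR, with 2 higher at an unadjusted p under 0.05 in both.

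Regulators and assembly factors of the chain had a median of -0.67 (-0.59 relative to all genes) over 9 tested genes, 7 fitted lower (9 with total-count and 0 with germline marker scaling) and 0 called by DESeq2 or edgeR. At an unadjusted p under 0.05 both tools gave 3 lower and 0 higher. The assembly factor genes *Scox* and *Surf1* were the 2 fitted above 0, at 0.16 (SE 0.50) and 0.061 (SE 0.66). *CIA30*, also an assembly factor gene, was fitted lower, at -0.44 (SE 0.50). The lower ones include *srl*, the fly PGC-1 coactivator, at 1425 and 1830 normalised counts under *aramis* RNAi and 3373 and 3335 under *bam* RNAi (-1.04, SE 0.41, adjusted p from DESeq2 0.0557). *TFAM*, which packages mitochondrial DNA, had 547 and 624 against 1326 and 1136 (-1.07, SE 0.42), and *PolrMT*, the mitochondrial RNA polymerase, 304 and 409 against 891 and 691 (-1.15, SE 0.45). For *srl*, *TFAM*, *PolrMT*, *ewg*, *Ets97D* and *CIA30* both *aramis* RNAi libraries lay below both *bam* RNAi libraries, as for 30.3% of all tested genes. *mtTFB2*, *Scox* and *Surf1* overlapped. The genes of this list were named after their values were seen. The germline markers, with a median of -2.05, were lower in the same libraries, and their part in these values was not tested.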

How the data were processed

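The authors deposited raw counts of reads per gene, 1 table per library with no header and no scaling. Their processing notes name HISAT2 (2.1.0), featureCounts (1.4.6), DESeq2 (1.24.0) and the dm6 build. Strand setting and annotation were not given in the sources used here. Symbols, positions and exons came from Ensembl release 115 of dm6, and 16647 of 17023 identifiers matched. The 376 others held 5.52% to 6.66% of counts. TPM used each gene's longest transcript.

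The DESeq2 (1.42.0) Wald test was run on genes with at least 10 counts in sum, group as the only term, with Benjamini-Hochberg adjustment over the whole table. A positive fold change means higher under *aramis* RNAi. Alternatives were edgeR (4.0.16), other scalings and filters, a transcript length correction, a replicate block and leaving out each library. The scripts were tested on simulated data. Members, lists and tests were chosen with earlier results of these data known. Named are members called, the 3 subunits per complex with the largest absolute fold change and the 2 highest in TPM, paralogs above 3 counts with their parents, and *ais* and *bam*. Genes outside this rule are examples of their group, chosen after their values were seen. Sequences were not used here.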

Additional observations from a re-analysis of the deposited data

How the results depend on the processing

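The DESeq2 call of 1 member became 0 with TMM scaling, the edgeR quasi-likelihood test, no independent filtering, a replicate block, and a replicate block with transcript length correction, became 56 with germline marker scaling, and ran from 0 to 12 when a library was left out. Calls over all genes, 1773, became 1167 with edgeR, 715 with the block, 1001 with block and length correction and 6570 with germline scaling, and ran from 188 to 2580 when a library was left out. Labels do not say whether replicate numbers pair the libraries. Deviations of same-numbered libraries correlated at -0.161 over all 11128 tested genes, with no minimum count beyond the filter. Over the 58 members whose mean normalised count reached 50 these deviations correlated at -0.60. Because the minimum was applied to the members alone, the correlations cannot be compared with each other. A crossed pairing, chosen after seeing the data, gave 5 members and 2968 genes. The block changed the call of ND-B14.5A (adjusted p = 0.198) and no other member's.

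Germline scaling moved the median log2 fold change to 2.30 for members, 2.30 for complex I, 2.05 for III, 2.31 for IV and 2.37 for V, and total-count scaling to -0.0035, -0.0040, -0.21, 0.019 and 0.087. Leaving out a library gave 0.12 to 0.74 for complex I, -0.074 to 0.29 for III and 0.027 to 0.71 for IV. The cause was not tested.

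With total-count scaling 19 of 56 tested subunits changed sign. Among the named genes these were *ATPsynC* (-0.22), *COX7A* (-0.19), *ND-MLRQ* (-0.14), *UQCR-11* (-0.19), *UQCR-C1* (-0.21) and *UQCR-Q* (-0.16), and with germline scaling the sign changed for *ATPsynbetaL* (0.82), *ATPsynepsilonL* (1.83), *COX7AL* (0.39), *COX7CL* (0.79), *ND-24* (0.87), *ND-49L* (1.64), *ND-75* (0.39), *ND-B18* (0.61) and *UQCR-6.4* (1.36). *ND-49L*, with 5 counts, was at 0.021 with edgeR, 0.12 with the block or the crossed pairing and 0.054 with block and length correction. When a library was left out, the sign changed for *ATPsynC* (-0.081 to 0.43), *ATPsynepsilonL* (-0.35 to 0.22), *COX7A* (-0.16 to 0.65), *ND-49L* (-1.04 to 0.99), *ND-51* (-0.036 to 1.02), *ND-75* (-2.07 to 0.20), *ND-B18* (-1.80 to 0.12), *ND-MLRQ* (-0.043 to 0.49), *UQCR-11* (-0.074 to 0.42) and *UQCR-Q* (-0.027 to 0.49). With a group of 1 library, that library was assumed to vary like the other group. The SE of a subunit's log2 fold change, with a median of 0.464 from 2 libraries per group, sets what could be called. The promoter search could not be run, since no sequences were used here.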
